A study of Mus musculus with 80 samples.

Results

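The genes described here make, recycle and use glutathione, carry electrons through thioredoxin, and remove superoxide and peroxides. They were chosen by symbol, from the families of glutathione transferases, glutathione peroxidases, peroxiredoxins, thioredoxins, glutaredoxins, superoxide dismutases and heme oxygenases. Sulfiredoxin, catalase, metallothioneins 1 and 2 and the enzymes of glutathione synthesis and recycling were added. On the arrays they were 52 cDNA clones of 44 genes, out of 16896 clones in all. Of these 16896 clones, 9663 carried exactly 1 gene symbol (7151 genes), and only such clones could be members.

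Glutathione is a small thiol that cells hold at high concentration. Peroxidases oxidise it while they reduce peroxides, glutathione reductase returns it to the reduced form with electrons from NADPH, and transferases join it to reactive compounds. Thioredoxins and peroxiredoxins form a parallel chain that also draws on NADPH, through thioredoxin reductase. The kidney's proximal tubule works with a dense population of mitochondria, takes up and breaks down much of the body's circulating glutathione, and is the main source of the secreted peroxidase in blood plasma.

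The series compared mouse kidneys by age and sex, all from the inbred strain C57BL/6. All animals were fed standard chow without restriction until they were killed, and no genotype or drug treatment is given. There were 20 males and 20 females, with 5 mice of each sex aged 17 to 44 days, 169 to 194 days, 476 to 499 days and 704 to 743 days. The youngest group held 5 mice of 17 to 21 days, 2 males and 3 females, beside 5 mice of 33 to 44 days, so it spans the age of weaning. Each mouse was measured on 2 nylon filters, set A and set B, which carry different clones. Of the 52 member clones, 19 were on set A and 33 on set B. Filter titles carried a running serial number. That series was cut here into 5 blocks, called rounds, so that each held 1 male and 1 female of every age group. No label names these blocks or says what they stand for. A male and a female of the same round and age group are called a couple, and there were 20 couples. In the youngest group, the male was 43 and the female 17 days old in round 1. These ages were 44 and 19 days in round 2, and 17 and 40 days in round 4. In such couples sex and maturity cannot be told apart.

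Deposited values were z scores, which place a clone by how many SDs of its own array it lies above or below the mean of that array. A difference between groups is therefore in array SDs and is no fold change, and whether values were on a log scale before is not given in the sources used here. Group differences compare a clone only with itself in other mice, and brightness ranks within a set serve only to mark dim clones, to check tissue markers and to choose among clones of a listed gene. A clone was called where its p from limma, adjusted over all 16896 clones by the Benjamini-Hochberg method, was under 0.05. In whole kidney, fewer cells of a type and less RNA per cell cannot be told apart.

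Each array was correlated with every other array of its set. The mean of these correlations was 0.891 at the lowest and 0.965 at the highest on set A, and 0.916 and 0.976 on set B, and 5 mice had an array that stood apart in at least 1 set. Of the 10 proximal tubule markers listed 3 had a clone, and Lrp2, Miox and Cubn lay at the 94.1, 89.1 and 71.3 percentiles of brightness within their sets. The summed level of these 3 clones had a median of 3.24 in males and 3.29 in females. That of 3 adrenal clones had medians of 2.29 and 1.90, and that of 3 liver clones 2.00 and 1.86. Podxl, the podocyte marker with a clone, had medians of -0.9025 and -0.887, so brightness alone did not set kidney markers apart. Among the 14 lists of cell type and tissue markers, no gene was called in any of the 5 comparisons by limma. Over all clones 0.107% were called for sex and 0% in the other comparisons. Several lists rested on 1 gene with a clone, out of 5 listed for the collecting duct and for macrophages and 4 for podocytes. These counts leave the cell composition of the kidneys unmeasured. The lists of T and NK cells, adipocytes and skeletal muscle had 0 genes with a clone, so those cell types were not measured.

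Promoter sequence gives these genes a common reference point. Many of them are textbook targets of Nrf2 (gene Nfe2l2), which binds the antioxidant response element. The letters TGACNNNGC, the core of that element, were searched on both strands in the 250 bases before each gene start in RefSeq's mouse annotation (GRCm38.p6). A promoter was listed for 38 of the 44 genes, and 9 of these 38 (23.7%) held the letters. Among all 27025 genes of the table, 3112 (11.5%) held them. Genes with several listed promoters counted once if any held the letters. Counted by promoter, 9 of 54 held them among the members and 3338 of 32851 in the table. The 9 genes were Gstm5, Gstm7, Mgst1, Mt2, Prdx1, Sod1, Txndc2, Txndc5 and Txnrd1. Those of 4 genes are printed, since they come from different branches of the pathway: a peroxiredoxin, a metallothionein, a reductase and a superoxide dismutase. Capitals mark the match, which lies on the plus strand in Mt2 and on the minus strand in the other 3. Txnrd1 has other listed promoters, which hold no match. The matches in Prdx1 and Mt2 also contain the AP-1 letters TGACTCA, so the motifs overlap there. A match describes letters only, and binding was not measured. The windows are chr4:116685349-116685598 for Prdx1, chr8:94172368-94172617 for Mt2, chr10:82858956-82859205 for Txnrd1 and chr16:90220512-90220761 for Sod1, all on the plus strand.
Prdx1: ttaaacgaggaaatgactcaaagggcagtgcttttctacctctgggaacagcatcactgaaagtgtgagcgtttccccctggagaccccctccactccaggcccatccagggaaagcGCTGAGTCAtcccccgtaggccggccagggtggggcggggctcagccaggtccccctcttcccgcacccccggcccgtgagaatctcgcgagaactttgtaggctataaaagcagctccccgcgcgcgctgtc
Mt2: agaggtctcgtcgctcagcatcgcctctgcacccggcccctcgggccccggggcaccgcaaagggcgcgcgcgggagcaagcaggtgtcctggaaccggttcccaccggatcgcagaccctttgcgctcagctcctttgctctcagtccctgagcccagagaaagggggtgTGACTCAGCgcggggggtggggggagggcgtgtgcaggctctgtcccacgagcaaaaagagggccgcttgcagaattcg
Txnrd1: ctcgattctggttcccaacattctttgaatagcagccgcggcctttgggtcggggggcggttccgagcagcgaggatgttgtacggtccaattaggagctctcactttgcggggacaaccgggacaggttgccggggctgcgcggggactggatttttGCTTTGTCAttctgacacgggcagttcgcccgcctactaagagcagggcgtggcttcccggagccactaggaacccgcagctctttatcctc
Sod1: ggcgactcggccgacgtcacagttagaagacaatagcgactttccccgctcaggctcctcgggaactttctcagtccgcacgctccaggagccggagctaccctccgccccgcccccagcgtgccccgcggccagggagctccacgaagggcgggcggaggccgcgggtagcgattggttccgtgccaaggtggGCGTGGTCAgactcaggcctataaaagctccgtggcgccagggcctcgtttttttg

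Between the sexes, 1 of the 52 clones was called. Gsta4, an alpha class glutathione transferase that conjugates 4-hydroxynonenal, a product of lipid peroxidation, was lower in males. Over all 16896 clones, 18 (0.107%) were called for sex, and 6 (0.0355%) were called and lower in males. At an unadjusted p under 0.05, 8 of the 52 clones passed (15.4%), beside 4.48% of all clones. The differences of the 52 clones, male minus female, were above 0 in 28 and below 0 in 24, with a median of 0.00766 array SD. Over all clones 8307 lay above 0 and 8589 below, with a median of -0.00117. The 8 members under the unadjusted threshold pointed in both directions, with Gpx1, Sod1, Gpx4, Gstp1 and Txndc2 above 0 and Gsta4, Gstm2 and Txndc17 below 0. The median standard error of a sex difference was 0.0506.

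**Figure D1:**
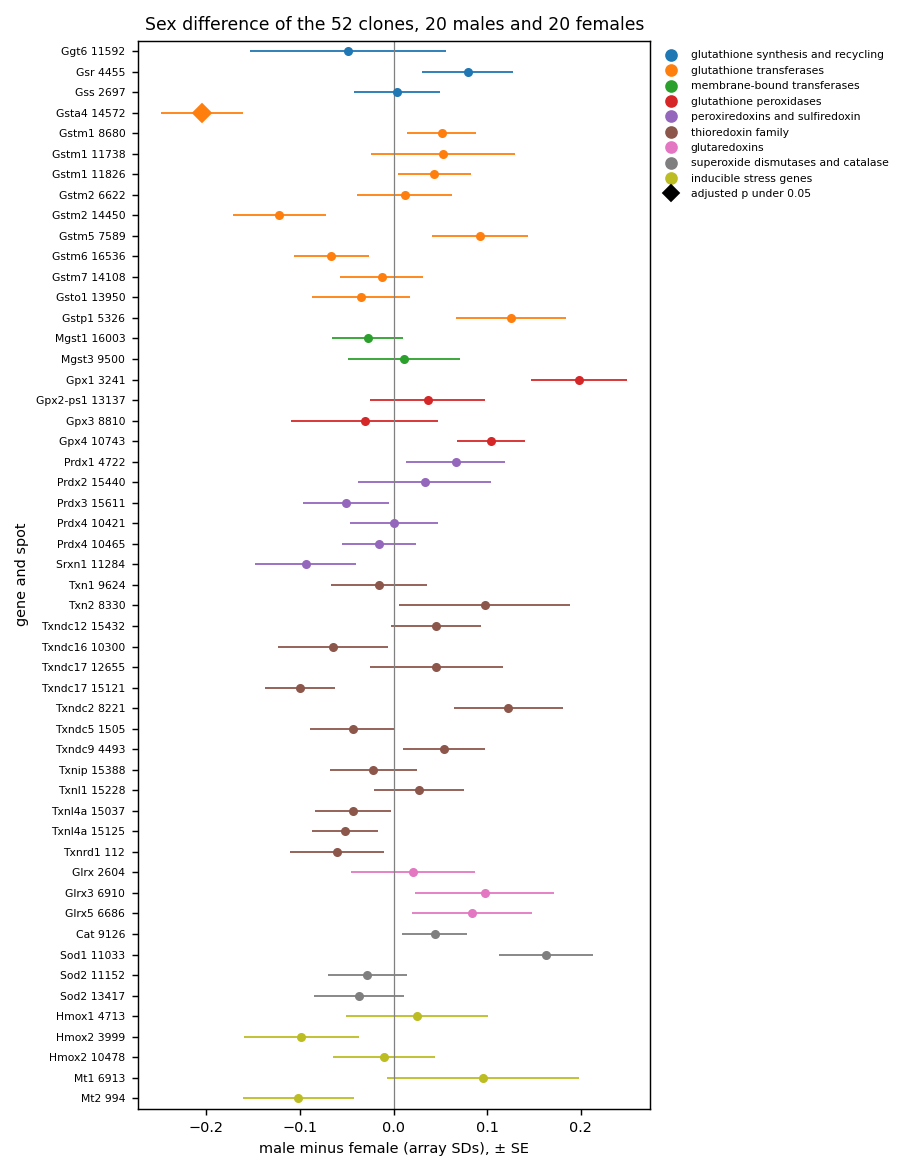
Male minus female difference of each of the 52 clones in array SDs (horizontal axis, with ± 1 standard error), averaged over the 4 age groups, with 20 males and 20 females. Clones are labelled by gene and spot number and coloured by role, and the diamond marks Gsta4, the only one with an adjusted p under 0.05 (limma). Gsta4 lies farthest left at -0.204 and Gpx1 farthest right at 0.198.

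No age comparison called a member. The age slope called 0 of 52 members and 0 (0%) of all clones, with 1 member (1.92%) at an unadjusted p under 0.05, beside 5.20% of all clones. From 17 to 44 days to 169 to 194 days, limma called 0 members and 0 (0%) of all clones. At an unadjusted p under 0.05, 3 members passed, or 5.77%, beside 5.08% of all clones. From 169 to 194 days to 704 to 743 days it called 0 members and 0 (0%) of all clones, with 0 members at an unadjusted p under 0.05, beside 2.36% of all clones. The F test, which asks whether the sex difference depends on age, called 0 members and 0 (0%) of all clones, with 3 members (5.77%) at an unadjusted p under 0.05, beside 3.23% of all clones. Ordinary least squares and limma with an intensity trend also called 0 members in each of these 4 comparisons, while ordinary least squares called 1 of all clones for the slope. At the unadjusted threshold the members' share was thus below that of all clones in 2 of these comparisons and above it in the other 2, each on 3 clones or fewer.

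The step from 17 to 44 days to 169 to 194 days is called the early contrast here, and that from 169 to 194 days to 704 to 743 days the late one. In the early contrast 38 members lay above 0 and 14 below, with a median of 0.0222 array SD, beside 0.00220 over all clones. Of all 16896 clones, 8622 lay above 0 and 8274 below. In the late contrast 26 members lay above and 26 below, with a median of -0.000400, beside 0.000988, and 8548 of all clones lay above and 8348 below. Both contrasts use the mice of 169 to 194 days, so a high value in that group pushes them in opposite directions. The values of each are given side by side below for that reason, without a measure of their likeness. The smallest p above 0 in the late contrast were those of Txndc17 (spot 15121, 0.0857 ± 0.0528) and Txnl4a (spot 15125, 0.0664 ± 0.0497). Txnl1, a dim clone, and Mgst1 followed with 0.0869 ± 0.0679 and 0.0622 ± 0.0536. Early values of these clones were -0.00634, 0.0424, 0.00183 and -0.00491 in the same order. Txndc17 at spot 12655 and Txn1 had early values of -0.116 ± 0.100 and -0.0842 ± 0.0718. None of these values passed.

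**Figure D2:**
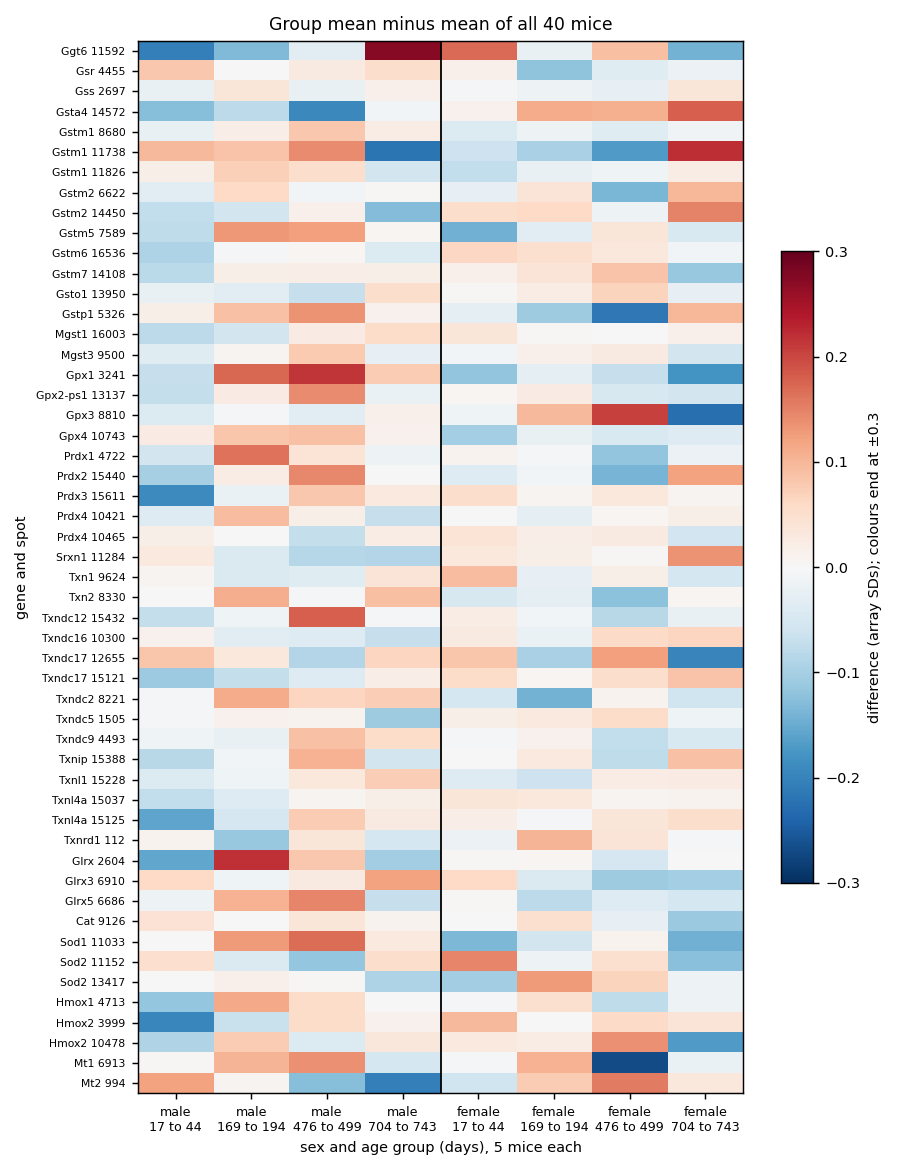
Mean of each sex and age group (columns, 5 mice each) minus the clone's mean over all 40 mice, in array SDs, for the 52 clones (rows, gene and spot number, ordered by role). Red is above and blue below the clone's mean, the values run from -0.269 to 0.273, and the Gsta4 row is blue or near white in the male columns and red or near white in the female columns.

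Synthesis and recycling of glutathione were represented by 3 clones. Gss, glutathione synthetase, adds the last amino acid. Its level ran from 1.495 to 2.06 in males with a median of 1.81, and from 1.53 to 2.03 in females with a median of 1.80. The sexes overlapped over almost the whole range, and the difference was 0.00410 ± 0.0459 (SE, 20 against 20). Gsr, glutathione reductase, had a median of -0.491 in males (-0.831 to -0.350) and -0.597 in females (-0.908 to -0.263), and the difference of 0.0789 ± 0.0487 did not pass (adjusted p = 0.982, limma). Ggt6, of the gamma-glutamyltransferase family, was dim and had the widest spread of all members, with an SD of 0.359 over 40 mice. Its highest value was 0.0295, in a male, and its lowest -1.91, in a female. No clone with 1 symbol stood for Gclc, Gclm or Ggt1, so the rate-limiting step of synthesis was not analysed here.

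Gsr was among the 14 members whose early age difference lay below 0. Its median was -0.501 at 17 to 44 days (-0.685 to -0.263), -0.630 at 169 to 194 days (-0.831 to -0.397), -0.572 at 476 to 499 days (-0.707 to -0.363) and -0.511 at 704 to 743 days (-0.908 to -0.350). The ranges of all 4 age groups overlapped. The early difference was -0.109 ± 0.0689, with 9 of 10 pairs of the same sex and round below 0, and the late difference was 0.0794 ± 0.0689, with 7 of 10 above 0. Neither passed (adjusted p = 0.950 and 1.00, limma). All 3 clones of this group had a late difference above 0, with a median of 0.0794, and none passed.

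Among the 11 clones of 8 cytosolic glutathione transferases, Gsta4 was the clone that passed. Male levels ran from 0.148 to 0.651 with a median of 0.363, and female levels from 0.409 to 0.915 with a median of 0.562. Of the 20 males, 11 lay below the lowest female, and the ranges overlapped between 0.409 and 0.651. The difference was -0.204 ± 0.0436 array SD (adjusted p = 0.0321, limma), and the male was lower in 17 of 20 couples.

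The sex difference of Gsta4 had the same sign at every age. At 17 to 44 days males had a mean of 0.343 ± 0.156 (SD, n = 5) and females 0.482 ± 0.0901, a difference of -0.139. At 169 to 194 days the means were 0.390 ± 0.202 and 0.581 ± 0.0353, a difference of -0.190, and at 704 to 743 days they were 0.462 ± 0.158 and 0.649 ± 0.162, a difference of -0.187. At 476 to 499 days the groups did not overlap, with males from 0.186 to 0.375 and females from 0.433 to 0.663, and the difference was -0.300. Whether the difference varied with age was tested by the F test, which gave 0.603 (adjusted p = 1.00, limma). Within the 5 rounds the difference was -0.226, -0.107, -0.221, -0.153 and -0.314, below 0 in each. The age slope over both sexes was 0.0528 ± 0.0298 per year (adjusted p = 0.937, limma) and did not pass.

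The call for Gsta4 rested on the full set of mice. It was lost without the 5 mice of 17 to 21 days (-0.227, adjusted p = 0.103), without the whole youngest group (-0.226, adjusted p = 0.0977) and without the 5 mice with an array that stood apart (-0.187, adjusted p = 0.179). Of 40 limma fits that each left out 1 mouse, 22 kept the call, with differences from -0.219 to -0.188 and adjusted p from 0.0103 to 0.0747. The 18 mice whose absence ended it were males 1 and 5 and females 2 and 4 at 17 to 44 days, males 3 and 5 and females 1, 2 and 4 at 169 to 194 days, males 2, 3 and 5 and females 2 and 3 at 476 to 499 days, and males 1, 3 and 5 and female 5 at 704 to 743 days, numbered by round. Among the marker lists, Ighm, the heavy chain of immunoglobulin M, had a difference of the same sign, -0.200 ± 0.0487 (adjusted p = 0.144, limma). Of the 5 B and plasma cell markers 2 had a clone, and the other, Blnk, had a difference of 0.0564 ± 0.0546. Their summed level ran from -0.435 to 0.259 in males and from -0.362 to 0.614 in females, and its part in the Gsta4 result was not tested.

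**Figure D3:**
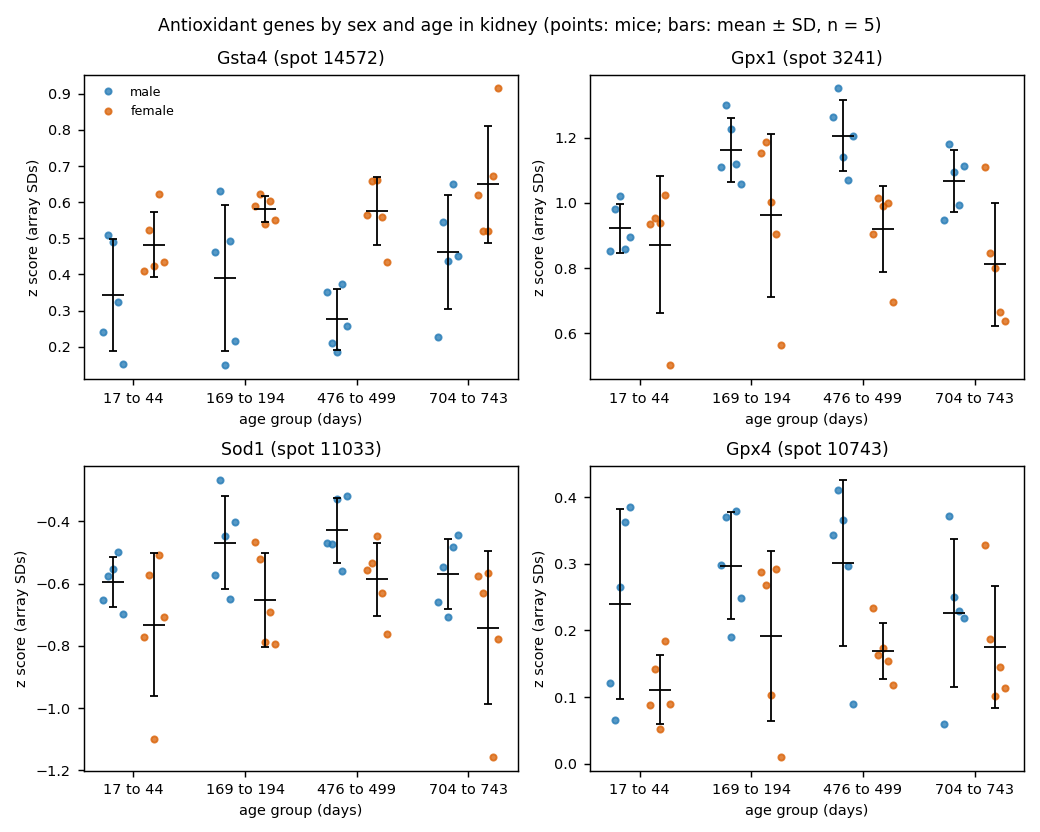
Levels of Gsta4, Gpx1, Sod1 and Gpx4 in every mouse (points, z score in array SDs) by age group, with males in blue and females in orange, and mean ± SD of 5 mice as bars. The male mean of Gsta4 lies below the female mean at every age, and the sexes do not overlap at 476 to 499 days (0.186 to 0.375 against 0.433 to 0.663). For Gpx1 the male mean is the higher at every age, by 0.0509 to 0.286, and that difference did not pass. At 17 to 44 days the Gpx1 medians go the other way, 0.894 in males and 0.938 in females, and 1 female lies at 0.501.

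The mu class transferases gave 8 clones of 5 genes, which are close relatives in sequence. A cDNA clone of this family can bind the transcripts of its relatives, so which gene each value stands for is uncertain. Gstm2 had clones on both sets. The clone at spot 14450 ran from -0.415 to 0.306 in males (median -0.0375) and from -0.174 to 0.488 in females (median 0.0768), and its difference of -0.122 ± 0.0495 did not pass (adjusted p = 0.982, limma). At 704 to 743 days the sexes did not overlap at this spot, with a difference of -0.279 and the male higher in 0 of 5 couples. At 476 to 499 days the difference was 0.0317. The other Gstm2 clone, at spot 6622, gave 0.0118 ± 0.0509 over all ages, with a male median of 2.69 and a female median of 2.69. Only the first clone thus departed from 0 by more than 2 standard errors.

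The symbol Gstm1 was carried by 3 clones, and their sex differences were 0.0514 ± 0.0371 (spot 8680), 0.0529 ± 0.0772 (spot 11738) and 0.0435 ± 0.0390 (spot 11826). At spot 11738 the difference had opposite signs in different age groups. It was 0.159 at 17 to 44 days, 0.182 at 169 to 194 days and 0.311 at 476 to 499 days, and -0.440 at 704 to 743 days. The male was the higher in 5 of 5 couples at 169 to 194 days and in 0 of 5 at 704 to 743 days. In the oldest mice males ran from 0.0408 to 0.471 and females from 0.372 to 1.05, so the groups overlapped slightly.

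The F test for this clone gave 4.72 (adjusted p = 1.00, limma), with an unadjusted p under 0.05, and it did not pass in any of 9 alternative fits. The other clones with the same symbol had smaller differences in the oldest mice, -0.0771 at spot 11826 and 0.0334 at spot 8680. Across the 40 mice, the 3 pairs of Gstm1 clones had Pearson's r of 0.296 to 0.373 and Spearman's rho of 0.286 to 0.308, and none passed (adjusted permutation p from 0.0778 to 0.136).

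The remaining transferase clones did not pass in any comparison. Gstp1, of the pi class, had a male median of -0.551 (-0.757 to -0.242) and a female median of -0.718 (-0.968 to 0.198). Males were the higher in 17 of 20 couples, the ranges over all ages overlapped widely, and the difference was 0.125 ± 0.0586 (adjusted p = 0.982, limma). At 476 to 499 days the sexes did not overlap, with a difference of 0.348 and the male higher in 5 of 5 couples. At 704 to 743 days the difference was -0.0870, with 1 female at 0.198 and the male higher in 3 of 5 couples. Gstm5, a dim clone, had the second smallest p of the members in the early age contrast. Its median was -1.64 at 17 to 44 days (-1.93 to -1.24) and -1.47 at 169 to 194 days (-1.71 to -1.14), a difference of 0.159 ± 0.0723 (adjusted p = 0.933, limma). The sex differences of Gstm6 (-0.0665), Gstm7 (-0.0127) and Gsto1 (-0.0346) were under 2 standard errors. Mgst1 and Mgst3, the membrane-bound transferases, had sex differences of -0.0275 ± 0.0379 and 0.0112 ± 0.0595.

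Of the glutathione peroxidases there were 4 clones of 4 genes. These enzymes reduce peroxides with glutathione. Gpx1, the cytosolic selenium enzyme that reduces hydrogen peroxide, had the second smallest p of the members for sex. Levels ran from 0.853 to 1.35 in males (median 1.10) and from 0.501 to 1.19 in females (median 0.937). Males were the higher in 16 of 20 couples, and 5 of 5 at 476 to 499 days, where the groups did not overlap. The difference of 0.198 ± 0.0511 did not pass (adjusted p = 0.228, limma), and over 10 alternative fits its adjusted p ran from 0.0514 to 0.506. Within the 5 rounds it was 0.0175, 0.204, 0.188, 0.113 and 0.469.

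Gpx4, which reduces lipid hydroperoxides within membranes, had a male median of 0.280 (0.0605 to 0.410) and a female median of 0.150 (0.0108 to 0.329). The male was the higher in 17 of 20 couples, while the ranges overlapped at every age, and the difference of 0.104 ± 0.0362 did not pass (adjusted p = 0.982, limma). Gpx3 is the secreted enzyme of blood plasma, made mainly in the kidney. It had a male median of 2.37 (2.10 to 2.65) and a female median of 2.46 (1.61 to 2.96), with a difference of -0.0309 ± 0.0784. Rounds held 45.8% of the variance of Gpx3, and sex held 0.348%. The clone named Gpx2-ps1, after a pseudogene of the gastrointestinal peroxidase, had a difference of 0.0365 ± 0.0611. It can bind transcripts of the parent gene, so its source is uncertain.

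All 4 peroxidase clones had an early age difference above 0, with a median of 0.0714, and a late one below 0, with a median of -0.0927, and none was called. Gpx1 had a median of 0.937 at 17 to 44 days (0.501 to 1.03), 1.11 at 169 to 194 days (0.563 to 1.30), 1.04 at 476 to 499 days (0.695 to 1.35) and 0.971 at 704 to 743 days (0.637 to 1.18). These ranges overlapped throughout. Its early difference of 0.166 ± 0.0723 was above 0 in 9 of 10 pairs and had the smallest p of the members (adjusted p = 0.933, limma). The youngest group held 1 female at 0.501, with the other females of that age between 0.935 and 1.03. The late difference of Gpx1 was -0.123 ± 0.0723, below 0 in 8 of 10 pairs (adjusted p = 1.00, limma). For Gpx3 the early and late values were 0.0738 ± 0.111 and -0.153 ± 0.111, and for Gpx4 0.0691 ± 0.0512 and -0.0436 ± 0.0512.

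Superoxide dismutases turn superoxide into hydrogen peroxide, and catalase breaks hydrogen peroxide down in peroxisomes. Sod1, the copper and zinc enzyme of the cytosol, ran from -0.708 to -0.266 in males (median -0.523) and from -1.16 to -0.448 in females (median -0.631). The male was the higher in 16 of 20 couples and the ranges overlapped at every age, with 2 females below -1. Its difference of 0.163 ± 0.0504 did not pass (adjusted p = 0.763, limma). By age group it was 0.136, 0.184, 0.157 and 0.173, and by round 0.00325, 0.0988, 0.217, 0.2003 and 0.294. Cat had a male median of -0.423 (-0.566 to -0.140) and a female median of -0.456 (-0.649 to -0.329), a difference of 0.0437 ± 0.0343. Its SD over 40 mice, 0.0982, was the smallest of the 52 clones.

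Sod2, the manganese enzyme of mitochondria, had a pair of clones on set B that gave opposite early age differences. The clone at spot 11152 had medians of 1.24 at 17 to 44 days (0.975 to 1.32) and 1.07 at 169 to 194 days (0.876 to 1.23), a difference of -0.127 ± 0.0593 (adjusted p = 0.933, limma). At spot 13417 the medians were -0.507 (-0.698 to -0.317) and -0.398 (-0.614 to 0.0286), a difference of 0.125 ± 0.0679 (adjusted p = 0.933, limma). In both clones the age groups overlapped. Late differences were -0.00859 ± 0.0593 and -0.125 ± 0.0679. Over 40 mice the clones had Pearson's r of -0.246 and Spearman's rho of -0.197 (permutation p = 0.126 and 0.222, adjusted over 10 clone pairs 0.157 and 0.277), and r was -0.231 without the 2 mice farthest from the median and -0.251 after round means were removed. No direction is therefore given for Sod2. Its clone at spot 11152 also had an unadjusted p under 0.05 in the F test (3.13, adjusted p = 1.00, limma), with sex differences of -0.0982, -0.0285, -0.164 and 0.179 from the youngest to the oldest group.

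**Figure D4:**
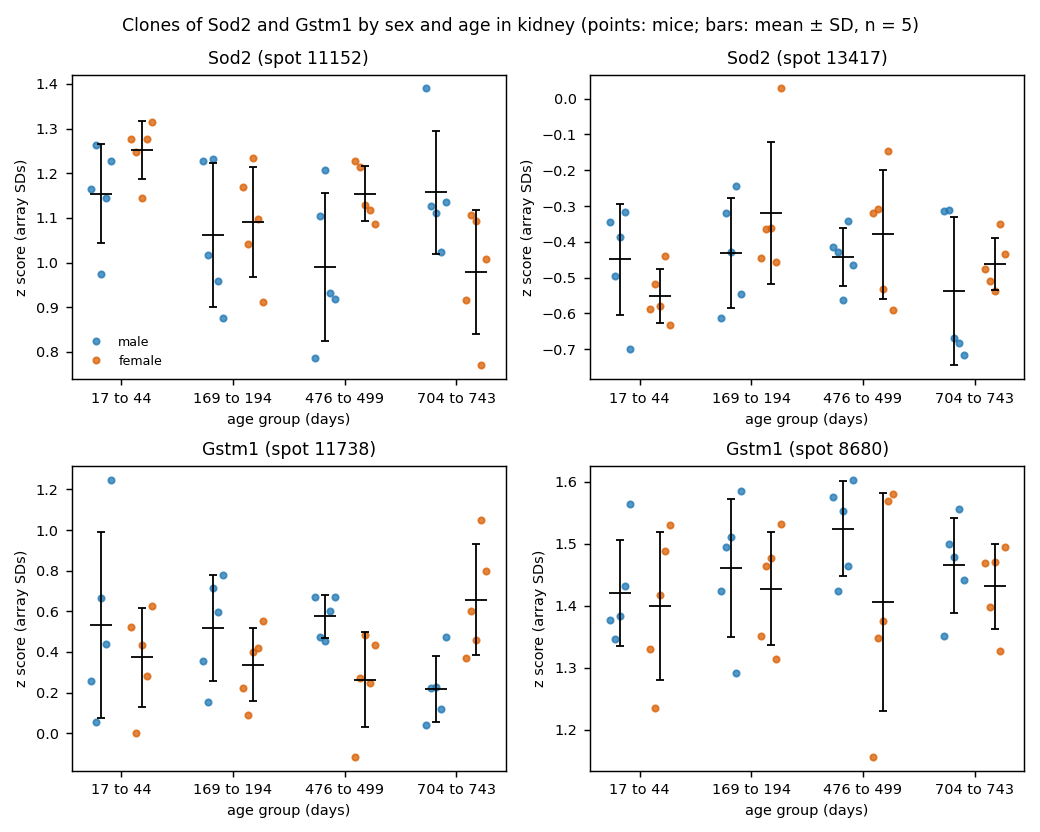
Levels of the pair of Sod2 clones (top) and of 2 of the 3 Gstm1 clones (bottom) in every mouse, as z scores in array SDs by age group, males in blue and females in orange, with mean ± SD of 5 mice. From the youngest to the next age group the Sod2 clones differ by -0.127 (spot 11152) and 0.125 (spot 13417). For Gstm1 at spot 11738 the male minus female difference is 0.311 at 476 to 499 days and -0.440 at 704 to 743 days, and at spot 8680 it is 0.118 and 0.0334.

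Peroxiredoxins reduce peroxides with electrons from thioredoxin, and sulfiredoxin repairs those that have been over-oxidised. None of their 6 clones passed in any comparison or reached an unadjusted p under 0.05. Prdx1, of the cytosol, had a male median of 0.0418 (-0.220 to 0.396) and a female median of -0.0417 (-0.441 to 0.225), with wide overlap and a difference of 0.0661 ± 0.0523. The differences of Prdx2, also cytosolic, and of Prdx3, of mitochondria, were 0.0334 ± 0.0709 and -0.0507 ± 0.0460. Srxn1, sulfiredoxin, gave the member of this group farthest below 0, -0.0936 ± 0.0539 (adjusted p = 0.982, limma), with the male lower in 14 of 20 couples. The clones of Prdx4, of the endoplasmic reticulum, gave 0.000550 ± 0.0468 and -0.0154 ± 0.0391. With age, Prdx1 had an early difference of 0.102 ± 0.0740 and a late one of -0.0959 ± 0.0740. No clone with 1 symbol stood for Prdx5 or Prdx6.

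Thioredoxins and genes of the thioredoxin fold made up 14 clones of 12 genes. Txn1, the cytosolic thioredoxin, had a male median of 0.364 (-0.0665 to 0.662) and a female median of 0.313 (0.144 to 0.789), a difference of -0.0156 ± 0.0508. The median and the mean thus differed in sign, and the sexes overlapped. Txn2, the mitochondrial form, had medians of 0.945 (0.226 to 1.36) and 0.755 (0.379 to 1.37), a difference of 0.0974 ± 0.0912, with 61.1% of its variance between rounds, the largest such share of the members. Txnrd1, the cytosolic reductase that returns thioredoxin to its reduced form, had medians of 0.363 (0.0573 to 0.641) and 0.489 (0.0374 to 0.640), a difference of -0.0605 ± 0.0502. Txnip, which binds and inhibits thioredoxin, had medians of -0.0465 (-0.230 to 0.307) and -0.00906 (-0.204 to 0.385), a difference of -0.0215 ± 0.0462. The adjusted p of these 4 genes for sex ran from 0.982 to 0.992 (limma).

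Txndc17, a cytosolic thioredoxin-related protein, had a pair of clones that gave different sex values. The clone at spot 15121 ran from 0.610 to 0.964 in males (median 0.832) and from 0.780 to 1.12 in females (median 0.913). The male was lower in 18 of 20 couples, the ranges overlapped, and the difference of -0.100 ± 0.0373 did not pass (adjusted p = 0.982, limma). Its other clone, at spot 12655, gave 0.0455 ± 0.0708, and the male was lower in 11 of 20 couples. Over 40 mice the pair had r of -0.00226 (permutation p = 0.989) and rho of 0.147 (permutation p = 0.361), and r was 0.186 without the 2 farthest mice. Txndc2, a gene known for its expression in testis, was dim and had a difference of 0.122 ± 0.0583 (adjusted p = 0.982, limma), with ranges of -1.20 to -0.578 in males and -1.35 to -0.695 in females.

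Txnl4a, a spliceosome protein with a thioredoxin fold, was the member with the smallest p for the age slope. The clone at spot 15125 had medians of -0.0132 at 17 to 44 days (-0.243 to 0.211), 0.0190 at 169 to 194 days (-0.0948 to 0.118), 0.0671 at 476 to 499 days (-0.0183 to 0.332) and 0.106 at 704 to 743 days (-0.00775 to 0.182). All 4 groups overlapped. The slope was 0.0610 ± 0.0244 array SD per year (adjusted p = 0.937, limma) and did not pass. Age group held 20.5% of the variance of this clone, the largest share of the members. The other clone, at spot 15037, had medians of 0.604, 0.547, 0.588 and 0.604 in the same order. Other slopes above 0 with small p were those of Txndc17 at spot 15121 (0.0432 ± 0.0243), Gsta4 and Txnl1 (0.0525 ± 0.0309). Below 0 the smallest p were those of Sod2 at spot 11152 (-0.0557 ± 0.0310) and Cat (-0.0353 ± 0.0230). Mt2 (-0.0575 ± 0.0427) and Txndc17 at spot 12655 (-0.0551 ± 0.0494) followed. None of these slopes passed.

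The Txnl4a clones were the only pair of the same gene that varied together past the threshold. Of 10 pairs of clones compared over 40 mice, 9 of the same gene and 1 of Mt1 with Mt2, this pair had r of 0.521 and rho of 0.558 (permutation p = 0.0006 and 0.00026, adjusted over 10 pairs 0.0060 and 0.0026). The r was 0.394 without the 2 mice farthest from the median and 0.473 after round means were removed, and within single rounds of 8 mice it ran from 0.147 to 0.849. The Txnl4a clones share each filter and its round, so their values are not independent measurements of the RNA. Other pairs, such as those of Prdx4 (r = 0.342 and rho = 0.235, adjusted permutation p = 0.0778 and 0.208) and Hmox2 (r = 0.286 and rho = 0.327, adjusted permutation p = 0.104 and 0.136), did not pass.

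Of the glutaredoxins, Glrx passes electrons from glutathione to protein disulfides. The sex differences of Glrx, Glrx3 and Glrx5 were 0.0208 ± 0.0665, 0.0973 ± 0.0739 and 0.0834 ± 0.0639, all above 0 and none past the threshold. Glrx, the cytosolic form, was dim and had an early age difference of 0.189 ± 0.0940 and a late one of -0.166 ± 0.0940 (adjusted p = 0.933 and 1.00, limma). Its medians were -1.31 at 17 to 44 days (-1.65 to -0.890), -1.06 at 169 to 194 days (-1.62 to -0.806), -1.17 at 476 to 499 days (-1.65 to -0.922) and -1.28 at 704 to 743 days (-1.62 to -0.976). The 4 groups covered nearly the same range.

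The stress genes were Hmox1, the inducible heme oxygenase, Hmox2, its constitutive relative, and Mt1 and Mt2, metallothioneins that bind zinc and copper. Hmox1 had a male median of 0.122 (-0.508 to 0.582) and a female median of 0.00188 (-0.328 to 0.532), a difference of 0.0250 ± 0.0760. Mt1 had medians of 1.35 (0.804 to 1.97) and 1.35 (0.484 to 1.86), a difference of 0.0957 ± 0.102, and 43.9% of its variance lay between rounds. Mt2 had medians of -0.603 (-1.10 to -0.287) and -0.511 (-0.938 to -0.152), a difference of -0.102 ± 0.0594 (adjusted p = 0.982, limma). All ranges overlapped. Mt1 and Mt2 lie side by side in the genome and are known to be induced together, and here their clones had r of -0.113 and rho of -0.111 (permutation p = 0.489 and 0.493). The Hmox2 clones gave -0.0984 ± 0.0615 and -0.00999 ± 0.0542.

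Mt2 was the third member with an unadjusted p under 0.05 in the F test (3.13, adjusted p = 1.00, limma). Its sex difference was 0.181 at 17 to 44 days, -0.0677 at 169 to 194 days, -0.284 at 476 to 499 days and -0.236 at 704 to 743 days. At 476 to 499 days males ran from -1.06 to -0.340 and females from -0.508 to -0.349, so the groups overlapped. Over both sexes the late age difference of Mt2 was -0.130 ± 0.0840, below 0 in 8 of 10 pairs, and that of Mt1 was -0.140 ± 0.145 (adjusted p = 1.00 for both, limma).

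Genes with and without the letters TGACNNNGC in their promoters were set side by side for sex, the age slope and both age contrasts. Clones of genes with no promoter in the table, among them Gsta4, the called member, were in neither group. For sex, 4 of the 9 clones with the letters lay above 0 and 5 below (median -0.0127), beside 20 above and 16 below among the 36 without (median 0.00766). For the slope, 4 lay above 0 and 5 below, beside 18 and 18. In the early contrast 7 lay above 0 and 2 below (median 0.0139), beside 25 and 11 (median 0.0222). In the late one 2 lay above and 7 below (median -0.0755), beside 19 and 17 (median 0.00276). Of the printed promoters, the late values of their genes were -0.0959 for Prdx1, -0.130 for Mt2, -0.0946 for Sod1 and -0.0231 for Txnrd1. Their early values were 0.102, 0.0116, 0.104 and -0.00129 in the same order. None of these values passed, and both contrasts share the mice of 169 to 194 days.

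Other genes of the pathway had clones for 31 of 50 listed. For sex, 1 of the 31 was called, beside 0.107% of all clones. At an unadjusted p under 0.05, 4 of the 31 passed (12.9%), beside 4.48% of all clones. Of the 31 differences 16 lay above 0 and 15 below, with a median of 0.00195. The called gene was Selenop, the plasma protein that carries selenium to tissues for enzymes such as Gpx1, Gpx3 and Gpx4, and it was higher in males (0.443 ± 0.0444, adjusted p = 2.33e-08, limma). The other 3 were Fth1, the heavy chain of the iron store ferritin, Akr1a1, an aldehyde reductase, and Cbs, which opens the route from homocysteine to cysteine. Their differences of 0.140 ± 0.0486, 0.0911 ± 0.0343 and 0.119 ± 0.0458 did not pass. Nfe2l2, which encodes Nrf2, had a sex difference of 0.00195 ± 0.0616, and Bach1, a repressor at the same promoter element, -0.0734 ± 0.0571. Of 4 genes that supply NADPH, Idh2, Me1, Taldo1 and Tkt, none was called, and their sex differences ran from -0.0250 to 0.0431. In the 4 other comparisons limma called 0 of the 31 and 0% of all clones. At an unadjusted p under 0.05, 0, 1, 1 and 1 passed for the slope, the early and late contrasts and the F test. The shares of all clones were 5.20%, 5.08%, 2.36% and 3.23% in that order.

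How much of each clone's variance went with rounds, sex and age was compared with all clones. Rounds held a median of 19.9% of the variance of the 52 clones, beside 18.4% over all clones, and ran from 1.76% to 61.1%. Sex held a median of 2.93%, beside 1.25%, with a maximum of 36.4% in Gsta4. Age group held a median of 4.24%, beside 5.55%. The median SD over 40 mice was 0.161 for the members and 0.174 for all clones. In 42 of the 52 clones the rounds held more of the variance than either sex or age group. This count was not made over all clones. The shares were not corrected for the number of groups, which is largest for rounds and smallest for sex, so the 3 terms are not on equal footing.

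**Figure D5:**
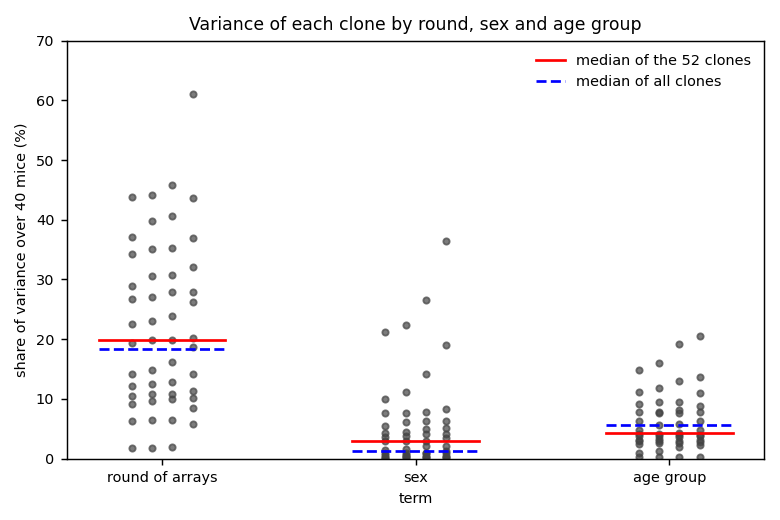
Share of the variance over 40 mice (percent, vertical axis) that lay between the 5 rounds, between the sexes and between the 4 age groups, with 1 point per member clone. Rounds are blocks of serial numbers, inferred from the titles. Red lines are the medians of the 52 clones (19.9%, 2.93% and 4.24%) and dashed blue lines those of all 16896 clones (18.4%, 1.25% and 5.55%), and the highest sex point is Gsta4 at 36.4%.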

How the data were processed

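Kidneys of 40 mice were measured on 80 filters of spotted cDNA clones, 2 per mouse. Per the labels' protocols, cDNA made from total RNA carried a radioactive label. The deposited values are scores, which the authors had brought to mean 0 and SD 1 on each array. How images and background were read, and on which scale, is not given in the sources used here. No column was left out (0), no value was missing (0) and no arrays were identical.

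Groups came from the labels' sex and age. The title and description of 1 male of 714 days name different mice. Rounds were inferred from serial numbers, and no label says what they stand for. Nothing beyond the labels says how the animals were reared, so p-values apply to these 40 mice. Each mouse had 1 filter per set, so the spread behind them joins differences between mice with those of labelling and filters. The main fits had no term for rounds.

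Each set was quantile normalized and fitted with limma 3.58.1 in R 4.3.3 (lmFit, eBayes). Sex, both age contrasts and the F test came from the 8 group means, and the slope, in years of 365 days, had sex as a second term. Benjamini-Hochberg adjustment ran over both sets, with a threshold of 0.05. The fits were tested on simulated data. The number of arrays limits the precision. Clone pairs were compared in Python with 100000 two-sided permutations. A list's gene was represented by its brightest clone.

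Names came from the platform table: 1 symbol for 9663 clones, several for 436, none for 6797. All 52 member symbols matched RefSeq. Values were chosen from called members, from the 4 of smallest p per direction and comparison, and from central genes of the pathway. Not every value of these members is printed. Members, lists and this rule were chosen with earlier results of these data known. Alternatives were values as deposited, rounds as a block, array weights, no moderation of the variance, an intensity trend, and leaving out dim clones or mice. Protein sequences were not used here, so no identity between relatives is given.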

Additional observations from a re-analysis of the deposited data

Results flagged for a closer look

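Single mice were examined within groups of 5 for 13 member clones, 104 groups in all, and 3 groups held a mouse far from the others. Chance alone marks about 1 in 20 groups by this measure. For Gpx1, the female of 17 to 44 days in round 5 had a level of 0.501, and the other 4 females of that age lay between 0.935 and 1.03. For Gstm2 at spot 14450, the female of 17 to 44 days in round 4 had a level of -0.0575, beside 0.0813 to 0.120 in the others. For Gstp1, the female of 704 to 743 days in round 5 had a level of 0.198, beside -0.712 to -0.654 in the others.

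For Gstm1 at spot 11738 every male was above the female of its couple at 169 to 194 days and below it at 704 to 743 days. The F test for a sex difference that varies with age gave 4.72 (adjusted p = 1.00, limma), so this did not pass over all clones.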

How the results depend on the processing

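Of the members' results over the 5 comparisons, the call of Gsta4 for sex was the only one that any alternative changed, and no result past the threshold changed sign. The count of members called for sex fell from 1 to 0 without the 5 mice with an outlying array, without the 5 mice of 17 to 21 days and without the group of 17 to 44 days, and ran from 0 to 1 over fits that each left out 1 mouse. Over all clones, the count for sex was 27 with array weights and 11 without the mice of 17 to 21 days, beside 18. The count for the age slope was 2 with rounds as a block, 2 with array weights and 1 by ordinary least squares, beside 0, and ran from 0 to 1 with 1 mouse left out. The early age contrast gave 1 call without the mice of 17 to 21 days, and the late one 1 call with array weights. With the replicate block (round), 19 clones were called for sex, Gsta4 among them, and no member's call changed. At an unadjusted p under 0.05, that block gave 8 members and 1045 of all 16896 clones for sex, beside 8 and 757 in the main fit. These counts were 11 and 1306 with array weights, and 8 and 641 without the mice of 17 to 21 days. Among the members' signed differences and slopes, none of those whose sign changed was past the threshold, and signs changed in 34 of 208 with array weights, 37 without the outlying mice, 31 without the mice of 17 to 21 days, 18 of 104 without the youngest group, 9 without the male of 714 days and 8 as deposited, and in 0 under the other settings run with all mice. Without the youngest group the age slope and the sex difference were run, and no other comparison. Of the 52 clones, 8 were in the dimmest 25% of their set, where signal limits the values.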
